A study of Mus musculus with 6 samples.

Results

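The genes that encode the constant part of antibody heavy chains, Ighm, Ighd, Ighg3, Ighg1, Ighg2b, Ighg2c and Igha, and the joining chain gene Jchain were read in single cells of the mouse pancreatic lymph node. These 8 genes were taken by symbol from the 31053 features of the count tables, and all 8 were found. The study profiled 6 mice that all carried a floxed allele. The labels call 3 of them CD4-Cre- (here Cre-negative 1 to 3) and 3 CD4-Cre+ (Cre-positive 1 to 3). Each library came from 1 mouse. Cre recombinase excises floxed DNA, and the Cd4 promoter drives it in developing T cells, so B cells were not the cells in which the allele was meant to be deleted. Strain, sex and age are not given in the labels.

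A naive B cell transcribes Ighm and Ighd together from 1 long transcript and carries IgM and IgD on its surface. After contact with antigen and T cell help it can enter a germinal centre, and it can switch class. In switching the heavy chain locus is cut and the same variable region is joined to a constant region further along. This changes the antibody class to IgG, IgA or IgE and removes Ighm and Ighd from that allele. Where the cells read here had switched is not known from these data. Jchain encodes the joining chain, a small protein that links IgM pentamers and IgA dimers and is made from the germinal centre stage onward, most of all in plasma cells. The pancreatic lymph node drains the pancreas.

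In GENCODE M21 on mm10 the 7 heavy chain genes lie on the minus strand of chromosome 12, in the order in which switching reaches them. They are Ighm (113418558 to 113422730), Ighd (113406604 to 113416324), Ighg3 (113356224 to 113361232), Ighg1 (113325240 to 113330523), Ighg2b (113302965 to 113307933), Ighg2c (113285325 to 113288932) and Igha (113254830 to 113260236). Jchain lies on chromosome 5 (88519809 to 88527891, minus strand). The 4 IgG genes are close copies, which bears on every IgG value here, and the first 60 coding bases of each are shown to let a reader see how close. They are the start of the first constant exon, and capitals mark bases that differ from Ighg2b at the same position.
Ighg3 (chr12:113361173-113361232): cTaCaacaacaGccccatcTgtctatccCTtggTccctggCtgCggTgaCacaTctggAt
Ighg1 (chr12:113330464-113330523): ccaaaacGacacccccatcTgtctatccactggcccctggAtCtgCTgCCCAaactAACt
Ighg2b (chr12:113307874-113307933): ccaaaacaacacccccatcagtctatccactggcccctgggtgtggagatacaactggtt
Ighg2c (chr12:113288873-113288932): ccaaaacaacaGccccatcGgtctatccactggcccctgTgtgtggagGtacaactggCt
In this window Ighg2c differed from Ighg2b at 5 bases and both Ighg1 and Ighg3 at 13. Over the aligned transcripts Ighg2b and Ighg2c had 83.7% identical bases and an exact shared run of 78 bases, the longest of any pair. The other IgG pairs had 74.2% to 76.0% identity and shared runs of 28 to 41 bases. Ighm against Ighd had 62.1% identity and a longest shared run of 11 bases. A read inside a shared run cannot be given to 1 gene, so small values of Ighg2c or Ighg3 beside large ones of Ighg2b are uncertain.

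The libraries held 47149014 to 61321105 unique molecular identifiers (UMIs, each a tag of 1 captured RNA molecule). After filtering 51777 cells were kept, with a median of 4239 to 5596 UMIs per library. Any 2 libraries shared 16 to 39 cell barcodes. Cells were sorted by UMIs of marker genes that include no antibody gene. This gave 10594 B cells, 294 germinal centre B cells, 35693 T cells, 103 plasmacytoid dendritic cells, 774 other dendritic cells, 269 monocytes or macrophages and 28 cells in a plasma-like gate. Per mouse there were 1119 to 2443 B cells and 31 to 78 germinal centre B cells. The germinal centre label was checked on genes the gate did not use. Mki67 and Top2a, which mark dividing cells, were higher than in other B cells (log2 fold change 5.95 and 3.98), and the naive B cell gene Fcer2a was lower (log2 fold change -1.26), each in 6 of 6 mice. The gate was still mixed. An Mki67 UMI was found in 31.3% of its cells and an Fcer2a UMI in 62.2%, against 0.529% and 78.5% of other B cells, at unequal depths. With stricter gates, which asked for more marker genes, the germinal centre gate held 125 cells. Its values below are those of this mixture. Summed over 8 T cell genes, T cell RNA was at 57.2 to 77.5 UMIs per 1000000 UMIs of the class (CPM) in B cells and 52.5 to 66.7 CPM in germinal centre B cells, against 4796 to 5044 CPM in T cells.

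Almost every B cell carried Ighm, and most carried Ighd. In B cells outside the germinal centre gate Ighm had 2241, 2104 and 2139 CPM in Cre-negative mice 1 to 3 and 2189, 2111 and 2061 CPM in Cre-positive mice 1 to 3. The groups overlapped and the 6 mice lay within a narrow range. An Ighm UMI was found in 99.2% ± 0.101 of B cells (SD, n = 6). Ighd had 842, 821 and 772 CPM in the Cre-negative mice and 752, 799 and 720 CPM in the Cre-positive mice, and a UMI in 92.0% ± 1.64 of B cells. Thinned to 2000 UMIs per cell, the shares of B cells with a UMI were 96.2% for Ighm and 75% for Ighd. B cells held 2.74 ± 0.136 Ighm UMIs for each Ighd UMI. UMIs were not scaled by gene length, so this ratio compares captured molecules.

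The switched isotypes were rare in these B cells. Igha, the constant region of IgA, was at 9.10 ± 4.02 CPM, Ighg2b at 7.50 ± 3.93, Ighg3 at 3.33 ± 2.17 and Ighg2c at 0.437 ± 0.453 CPM (SD, n = 6). A UMI of Igha was found in 1.70% ± 0.684 of B cells, of Ighg2b in 0.749% ± 0.333 and of Ighg3 in 0.611% ± 0.192. In T cells, which do not make antibody, the same shares were 0.341% ± 0.448, 0.150% ± 0.154 and 0.0559% ± 0.00920, at median depths of 4500 to 5915 UMIs against 3857 to 5138 in B cells. Ighg1 was uneven, with 2.14, 0.689 and 1.5 CPM in the Cre-negative mice and 44.2, 0.292 and 7.04 CPM in the Cre-positive mice. A single cell gave 370 of the 458 Ighg1 UMIs of Cre-positive 1, and without the cell of most Ighg1 UMIs that mouse had 8.49 CPM. Jchain had 1.81, 0.689 and 2.46 CPM in the Cre-negative mice and 17.6, 6.71 and 4.16 CPM in the Cre-positive mice. In Cre-positive 1 a single cell gave 159 of 182 Jchain UMIs.

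**Figure D1:**
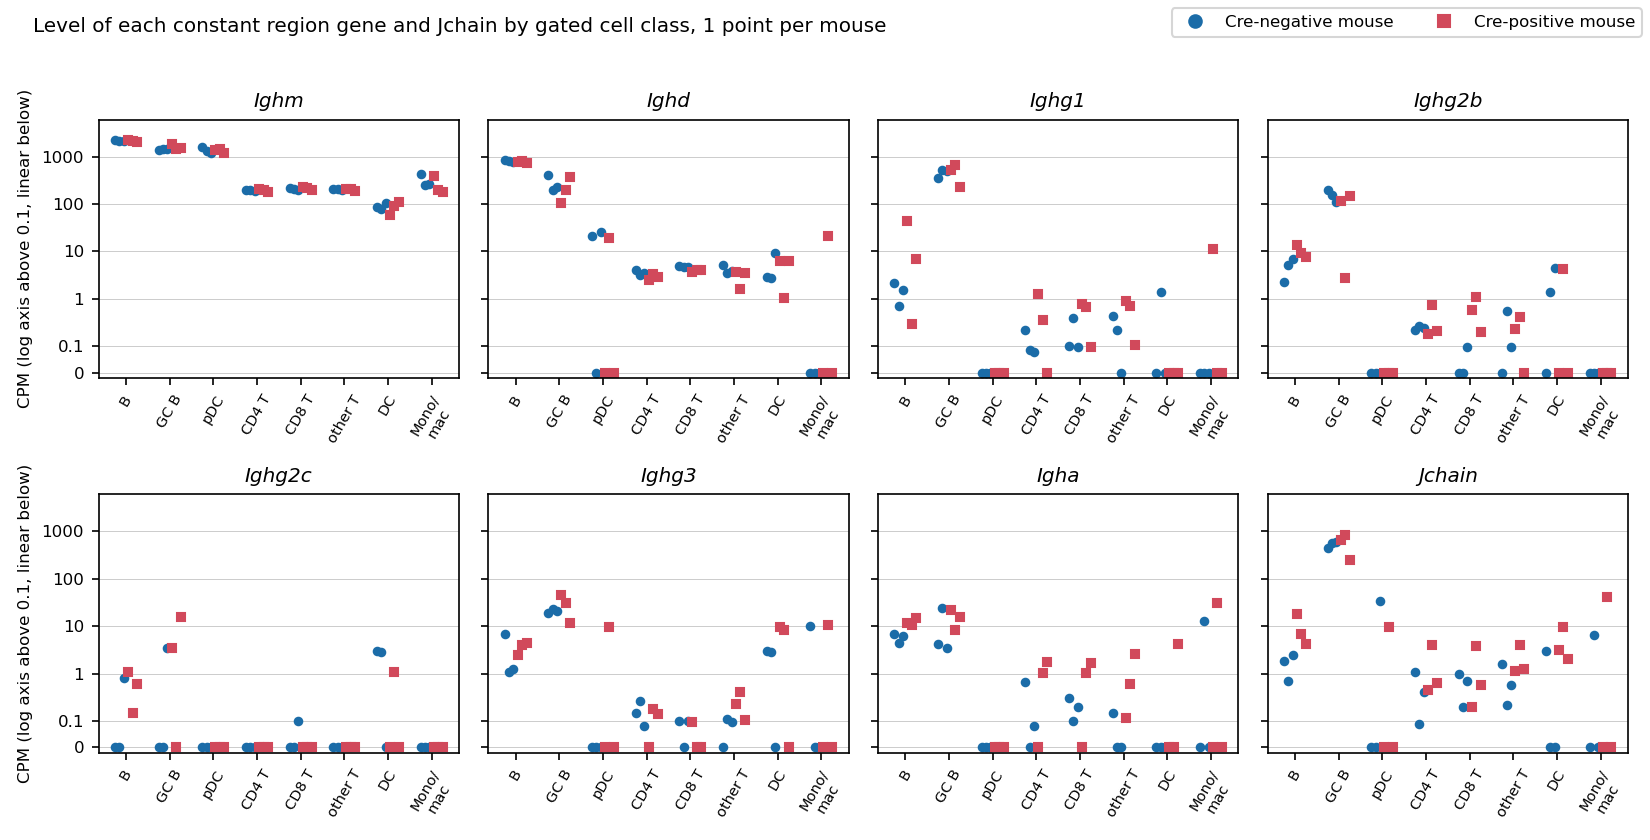
Level of each gene in CPM (UMIs of the gene per 1000000 UMIs of the class) in 8 gated cell classes without the plasma-like gate, with 1 point per mouse (circles Cre-negative, squares Cre-positive, n = 3 each). The axis is logarithmic above 0.1 CPM and linear below. Ighg1, Ighg2b and Jchain stand highest in germinal centre B cells among these 8, and Ighm stands near 200 CPM in all 3 T cell classes while Ighd stays below 10 CPM there.

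Germinal centre B cells carried switched constant regions at a much higher level. Ighg1 had 350, 523 and 486 CPM in the Cre-negative mice and 514, 655 and 227 CPM in the Cre-positive mice, and every mouse lay above the highest B cell value of any mouse. Ighg2b had 193, 155 and 112 CPM in the Cre-negative mice and 116, 2.77 and 151 CPM in the Cre-positive mice. Cre-positive 2 stood apart with 1 Ighg2b UMI in 33 germinal centre cells. Ighg3 was at 24.8 ± 11.5 CPM and Ighg2c at 3.71 ± 5.91 CPM (SD, n = 6). Ighm was at 1511 ± 171 CPM and Ighd at 250 ± 113 CPM, and Ighm UMIs outnumbered Ighd UMIs by 3.41 to 17.7 times per mouse.

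Jchain differed between the 2 B cell classes by a wide margin in every mouse. It had 451, 574 and 591 CPM in germinal centre B cells of the Cre-negative and 660, 852 and 250 CPM in those of the Cre-positive mice. A Jchain UMI was found in 43.6% ± 14.5 of germinal centre B cells and in 0.918% ± 0.667 of other B cells (SD, n = 6), and in 35.0% and 0.392% after thinning to 2000 UMIs. In T cells, the background for these genes, the unthinned share was 0.655% ± 0.748. The median depth per mouse was 6027 to 8641 UMIs in the germinal centre gate and 3857 to 5138 in other B cells.

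Across all genes, germinal centre B cells were compared with other B cells of the same mice in a model with the mouse as a block, and 41.9% of 10350 genes tested were called, 20.8% higher and 21.2% lower. Of the 8 members, 5 rose and 2 fell. Jchain rose by 6.60 on the log2 scale (SE 0.555, edgeR quasi-likelihood adjusted p = 2.65e-04), Ighg1 by 6.07 (SE 0.961, adjusted p = 0.00428) and Ighg2b by 3.86 (SE 0.685, adjusted p = 0.00681). Ighg3 rose by 2.88 (SE 0.360, adjusted p = 2.53e-08) and Ighg2c by 2.83 (SE 0.785, adjusted p = 0.00178). The Ighg2c call rested on Cre-positive 3, which held 8 of the 12 Ighg2c UMIs in the gate, and was lost without that mouse (log2 fold change 1.53, adjusted p = 0.292). Ighd fell by 1.86 (SE 0.281, adjusted p = 0.0035) and Ighm by 0.63 (SE 0.0532, adjusted p = 4.43e-20). Igha did not pass, at 13.0 ± 9.12 CPM in the gate and 9.10 ± 4.02 CPM outside it (log2 fold change 0.52, SE 0.300, adjusted p = 0.164).

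As a share of all heavy chain constant UMIs, the 5 switched genes made up 24.1%, 30.4% and 27.5% in germinal centre B cells of the Cre-negative and 26.4%, 29.6% and 18.5% in those of the Cre-positive mice. In other B cells they made up 0.578%, 0.385% and 0.565% in the Cre-negative mice and 2.43%, 0.831% and 1.23% in the Cre-positive mice. The difference between the classes was 25.1 ± 4.59 percentage points (SD, n = 6), with the germinal centre share higher in 6 of 6 mice (exact two-sided sign-flip permutation test, p = 0.031, the smallest that 6 mice allow). Its size depended on the gate, and with stricter gates it was 42.9 ± 10.2 points. Within the gate Ighg1 made up 19.2% ± 6.16 of heavy chain UMIs, Ighg2b 5.12% ± 2.80, Ighg3 1.03% ± 0.410, Igha 0.538% ± 0.364 and Ighg2c 0.160% ± 0.261.

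**Figure D2:**
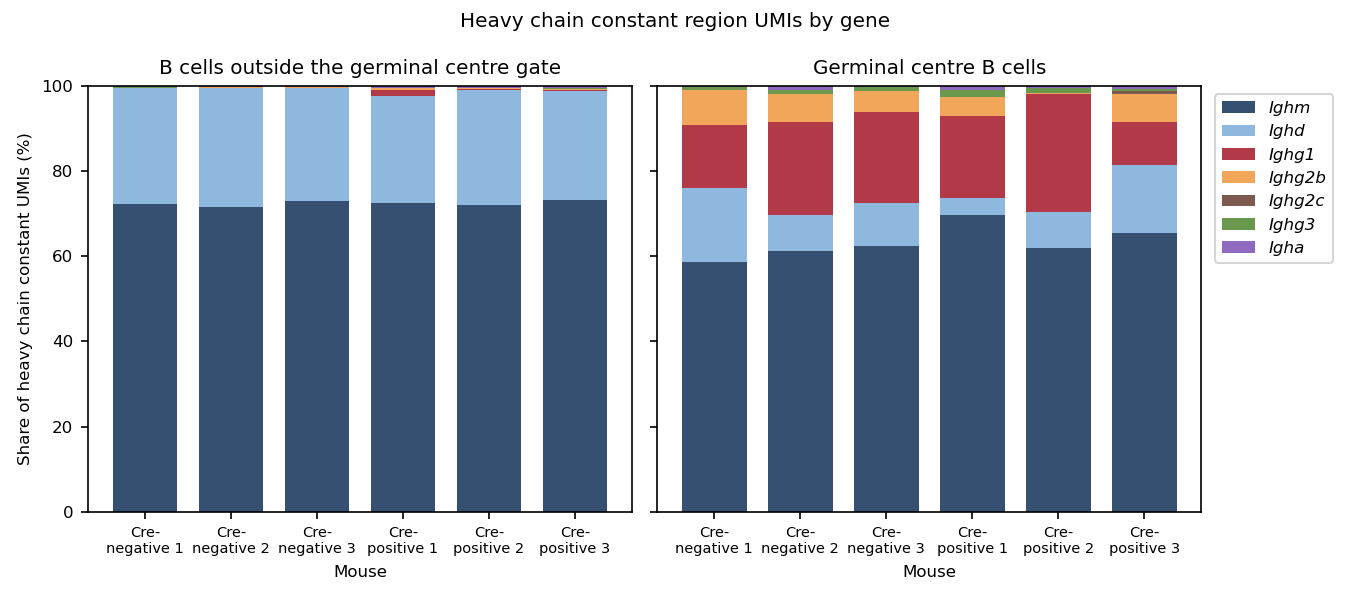
Share of heavy chain constant region UMIs (percent, stacked to 100) that came from each of the 7 genes, with 1 bar per mouse, in B cells outside the germinal centre gate (left) and in germinal centre B cells (right). Switched genes fill 18.5% to 30.4% of each germinal centre bar and at most 2.43% of any other B cell bar.

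Isotypes were also counted cell by cell. A cell was counted as switched with at least 2 UMIs of the 5 switched genes and more of these than of Ighm and Ighd, and as unswitched in the reverse case. In the germinal centre gate 70 cells were switched, 207 unswitched and 17 neither. Ighg1 was the leading switched gene in 55 of the 70, Ighg2b in 12 and Igha in 3. Outside the gate 43 of 10594 B cells were switched, and there Ighg2b led in 17, Igha in 14, Ighg1 in 10 and Ighg2c and Ighg3 in 1 each. The shift between the gates in which isotype led was not tested. The share of switched cells per mouse was 14.0% to 32.3% in the gate and 0.131% to 0.598% outside it, over cells that could be given either state. At 2000 UMIs per cell the shares were 13.2% to 26.5% and 0.207% to 0.631%. Switched germinal centre cells were deeper, with a median of 14911 UMIs against 5936 in unswitched cells of the gate. Another 59 barcodes with at least 5 switched UMIs met no gate, at a median of 16781 UMIs.

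Cells with at least 50 UMIs of 1 switched gene were read for the other heavy chain genes, each cell under its leading switched gene. Over 10 such cells of Ighg1, 97.7% of heavy chain UMIs were Ighg1 and 2.26% Ighm. A single plasma-like cell of Cre-positive 1 held 2838 of these Ighg1 UMIs and no Ighm, and over the other 9 cells the shares were 91.3% and 8.58%. In those 9 cells the Ighg1 share ran from 44.0% to 100%, with a median of 99.5%. No Ighg2b, Ighg2c or Ighg3 UMI was seen beside 3764 Ighg1 UMIs. Over 4 cells led by Ighg2b, 97.9% of heavy chain UMIs were Ighg2b, 0.378% Ighg2c and 1.32% Ighg3, and without the cell of most Ighg2b UMIs these were 93.0%, 1.23% and 4.61%. All 56 of those Ighg3 UMIs lay in 1 cell of Cre-positive 3, which also had 101792 UMIs in all. Over 3 cells led by Igha, 99.6% were Igha. The values without 1 cell were added after the data were seen.

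Some unswitched cells had no Ighd UMI. Among unswitched cells 26.2% ± 11.2 of those in the gate had no Ighd UMI, against 7.29% ± 1.63 outside it (SD, n = 6), at the deeper median of the gate. No test was run on this share. Cre-positive 1 was highest in the gate at 47.2% and had the lowest Ighd level there, 105 CPM.

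The plasma-like gate, which asked for 3 of the 5 genes Sdc1, Prdm1, Tnfrsf17, Derl3 and Mzb1, held cells of very unequal antibody RNA. With a threshold of 500 heavy chain UMIs, set after the values were seen, 12 of its 28 cells were antibody-rich and 16 were not. The 12 held 653 to 4418 heavy chain UMIs and 204 to 3726 Jchain UMIs each. The other 16 held 4 to 158 heavy chain UMIs, and 4 of them had a Jchain UMI. Ms4a1, which encodes the B cell surface protein CD20, was found in all 16 (2 to 62 UMIs, median 10) and in 10 of the 12 antibody-rich cells (0 to 7 UMIs, median 2.5). Heavy chain RNA made up 1.07% to 13.3% of all UMIs of an antibody-rich cell. Ighm led in 7 of the 12, Ighg2b in 2, Igha in 2 and Ighg1 in 1, and the leading gene held 92.2% to 100% of heavy chain UMIs. For every 100 heavy chain UMIs these cells held 16.0 to 98.9 Jchain UMIs, also where the heavy chain was IgG. The antibody-rich cells came as 1, 0 and 0 from Cre-negative and 4, 6 and 1 from Cre-positive mice (exact two-sided permutation test over mice, p = 0.2).

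**Figure D3:**
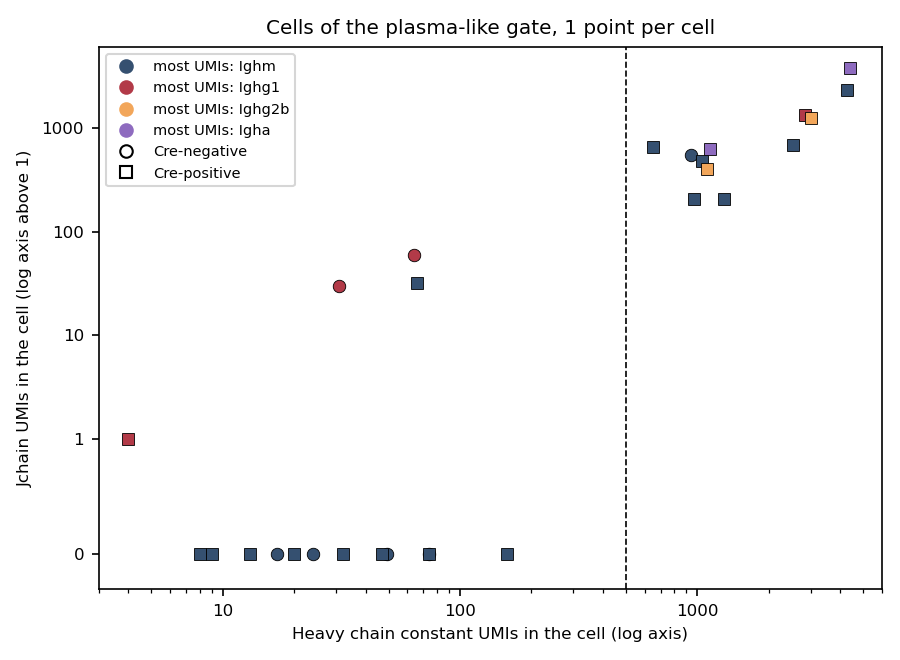
Heavy chain constant UMIs (horizontal, log axis) against Jchain UMIs (vertical, log axis above 1) in the 28 cells of the plasma-like gate, with 1 point per cell, coloured by the heavy chain gene with most UMIs (circles Cre-negative, squares Cre-positive). The dashed line at 500 UMIs parts 12 antibody-rich cells, all with over 200 Jchain UMIs, from 16 cells with 0 to 60.

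T cells do not make antibody, and their UMIs of these genes were read first as a gauge of free RNA, which leaks from broken cells into droplets. For most B cell genes the level in T cells was under 1% of that in B cells. It was 0.202% ± 0.0314 for Cd79a, 0.168% ± 0.0315 for Ms4a1, 0.380% ± 0.0609 for the light chain gene Igkc and 0.469% ± 0.0543 for Ighd (SD, n = 6). Ighm departed from this. It stood at 204, 206 and 192 CPM in T cells of the Cre-negative and 215, 204 and 186 CPM in those of the Cre-positive mice, which is 9.39% ± 0.400 of its level in B cells. An Ighm UMI was found in 53.7% to 61.7% of T cells per mouse, and in 29.1% to 32.0% at 2000 UMIs per cell, where Ighd was found in 0.529% to 0.936%.

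T cells held 55.6 ± 8.66 Ighm UMIs for each Ighd UMI, against 2.74 ± 0.136 in B cells (SD, n = 6), and the lowest T cell ratio, 44.3, lay far above the highest B cell ratio, 2.91. The 19709 T cells with no UMI of 7 B cell genes had 202 ± 11.6 CPM of Ighm, and the 15984 T cells with such a UMI had 200 ± 10.4 CPM. Both kinds of T cell thus carried Ighm, and the difference within a mouse was 2.21 ± 8.15 CPM (exact two-sided sign-flip permutation test, p = 0.531). The highest T cell held 37 Ighm UMIs. CD8 T cells had 210 ± 13.5 and CD4 T cells 194 ± 8.88 CPM. CD8 cells were higher in 6 of 6 mice by 15.4 ± 7.49 CPM (exact two-sided sign-flip permutation test, p = 0.031, the smallest that 6 mice allow). Both of these comparisons were chosen after the values were seen. The source of the Ighm UMIs in T cells was not tested.

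**Figure D4:**
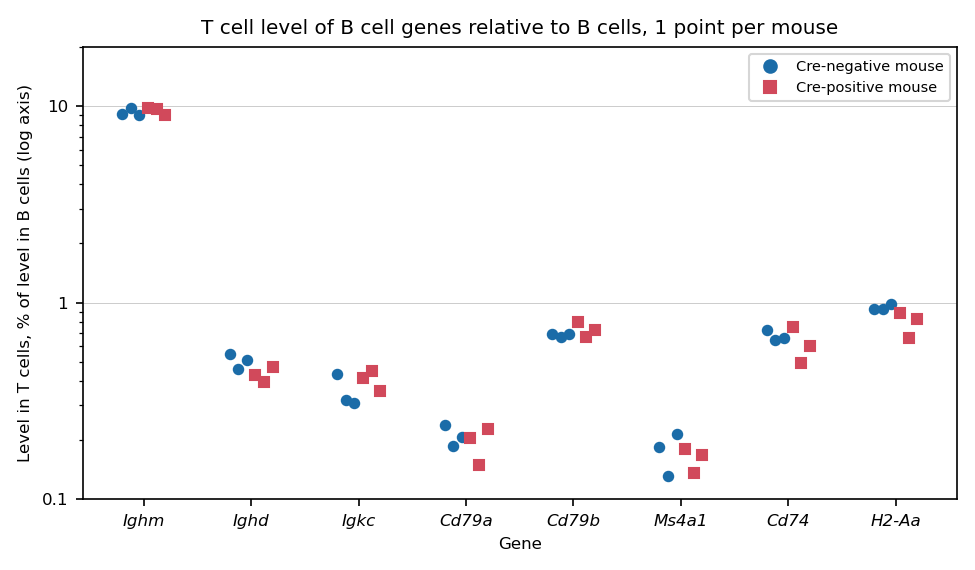
Level in T cells as a percentage of the level in B cells (log axis) for Ighm, Ighd and 6 other genes of B cells, with 1 point per mouse (circles Cre-negative, squares Cre-positive). Ighm lies at about 9% in all 6 mice and the other 7 genes below 1%.

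Plasmacytoid dendritic cells, a lymphoid-like source of interferon, carried Ighm nearly at the level of germinal centre B cells. They had 1369 ± 162 CPM (SD, n = 6), with 11 to 23 cells per mouse, and the range of 1201 to 1621 CPM overlapped that of germinal centre B cells (1382 to 1852 CPM). Their Ighd was at 11 ± 12.3 CPM with no UMI in 3 of 6 mice. No Ms4a1 UMI was found in these cells, and Cd79a was at 4.49 ± 4.93 CPM against 2851 ± 165 CPM in B cells. Igkc was at 660 ± 271 CPM there, against 8954 ± 441 CPM in B cells.

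The classes were then ordered by level per mouse. The plasma-like gate was left out of this order for its 1 to 9 cells per mouse. Pooled over its 28 cells it stood far higher, at 17419 CPM for Ighm, 4148 for Ighg1, 5759 for Ighg2b, 7910 for Igha, 89.7 for Ighg3 and 17821 for Jchain. By level of Ighm the other 8 classes ranked B cells, germinal centre B cells, plasmacytoid dendritic cells, monocytes or macrophages (284 ± 97.7 CPM), CD8, other and CD4 T cells, and dendritic cells (88.2 ± 18.7 CPM). The ranges of B and germinal centre B cells did not overlap, nor those of plasmacytoid dendritic cells and monocytes, nor those of CD4 T cells and dendritic cells. The neighbours in between overlapped. For Ighd only the steps from B to germinal centre B cells and from these to plasmacytoid dendritic cells were free of overlap, and all other classes lay at 11 CPM or less on average. For Ighg1, Ighg3 and Jchain germinal centre B cells stood first of the 8 without overlap with the next class. For Ighg2b they stood first and overlapped B cells through Cre-positive 2. Igha in germinal centre B cells overlapped that in B cells, and neighbours further down the order overlapped for every switched gene. Ighg2c in germinal centre B cells overlapped that in dendritic cells. These are UMI sums, so less RNA per cell and fewer cells with the gene cannot be told apart from the level alone.

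The other switched genes and Jchain were close to 0 in T cells but not evenly so. Jchain was at 1.17, 0.163 and 0.547 CPM in T cells of the Cre-negative and 0.561, 3.92 and 0.797 CPM in those of the Cre-positive mice. The highest mouse, Cre-positive 2, was also the mouse with 6 antibody-rich cells. The order did not hold in general, since Cre-positive 1, with 4 such cells, lay below Cre-negative 1, with 1. A link between the 2 was not tested. Igha was at 0.424, 0.0326 and 0.0911 CPM in the Cre-negative mice and 0.0330, 0.925 and 1.95 CPM in the Cre-positive mice. Ighg2c had 1 UMI in 35693 T cells.

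The design contrasts mice with and without CD4-Cre. In B cells 0.0195% of 10270 genes tested were called, which is 2 genes, and both were higher in the Cre-positive mice. One of them was Igha. It had 6.75, 4.41 and 6.15 CPM in the Cre-negative mice and 11.7, 10.5 and 15.1 CPM in the Cre-positive mice, from 41, 32 and 45 and from 121, 72 and 178 UMIs. The groups did not overlap. With edgeR's quasi-likelihood test and Benjamini-Hochberg adjustment the log2 fold change was 1.16 (SE 0.182, adjusted p = 0.0165). Cells with an Igha UMI made up 1.34%, 1.30% and 1.19% of B cells in the Cre-negative mice and 1.51%, 1.85% and 3.02% in the Cre-positive mice. Without the cell of most Igha UMIs in each mouse the levels were 2.80, 2.76 and 3.96 against 7.91, 7.02 and 12.1 CPM, and the groups again did not overlap. The call was lost without Cre-negative 2 (log2 fold change 1.00, adjusted p = 0.147) and without Cre-positive 3 (0.96, adjusted p = 0.0872). It was also lost with a limit of 5% mitochondrial UMIs (0.30, adjusted p = 0.999) and, in a setting added after the data were seen, when B cells with 1 CD3 UMI were let in (0.25, adjusted p = 0.978). The T cell level of Igha was highest in Cre-positive 2 and 3 and low in Cre-positive 1, and its part in the B cell result was not tested.

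The second gene called was Fcrl5, an Fc receptor-like protein of B cells, at 13.4 ± 0.546 CPM in the Cre-negative mice and 21.0 ± 0.690 CPM in the Cre-positive mice (SD, n = 3). Its log2 fold change was 0.65 (SE 0.115, adjusted p = 0.0445). It is 1 of 11 genes of the list of light chain constant genes and antibody receptors. Its call was lost in 11 of 15 alternatives, among them leaving out any 1 of the 6 mice (adjusted p from 0.0599 to 0.234). None of the 26 tested genes of class switching, 23 of antibody secretion, 18 of B cell receptor signalling and 15 of receptors for T cell help was called. Their median log2 fold changes were 0.02, 0.05, 0.03 and -0.01, beside 0.00124 over all genes tested.

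None of the other members was called in B cells, and Ighg2c fell under the low-count filter. Ighm had a log2 fold change of -0.01 (SE 0.0746, adjusted p = 0.993) and Ighd of -0.09 (SE 0.0778, adjusted p = 0.966). The Ighg2b level in B cells was 2.30, 5.10 and 6.83 CPM in the Cre-negative mice and 13.9, 9.34 and 7.55 CPM in the Cre-positive mice, which did not overlap (log2 fold change 1.09, SE 0.383, adjusted p = 0.887). It passed only where no low-count filter was used (adjusted p = 1.16e-04), a setting under which 24 genes were called in place of 2. Jchain did not overlap either (2.54, SE 0.948, adjusted p = 0.934). Thus 3 of the 7 members tested did not overlap between groups in B cells, where 10.8% of all genes tested did not. The adjusted p was 0.962 for Ighg1 and 0.989 for Ighg3.

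The switched share of heavy chain UMIs in B cells was 0.509% ± 0.108 in the Cre-negative mice and 1.5% ± 0.831 in the Cre-positive mice (SD, n = 3). The groups did not overlap, and the exact two-sided permutation test gave p = 0.1, the smallest that 3 mice against 3 allow (adjusted p = 0.5 over 5 shares). Without the cell of most switched UMIs in each mouse the mean difference was 0.617 instead of 0.988 percentage points, and without Cre-positive 1 it was 0.522. The share of B cells that were switched was 0.180%, 0.131% and 0.477% in the Cre-negative mice and 0.452%, 0.412% and 0.598% in the Cre-positive mice (exact permutation test, p = 0.3, adjusted p = 0.7), from 2, 2 and 8 and from 11, 6 and 14 cells. The 95% exact binomial interval of the lowest share ran from 0.0159% to 0.474% and that of the highest from 0.327% to 1.00%, counting error only.

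In germinal centre B cells no gene was called among 5372 (0%) by edgeR or by DESeq2, and 158 had an unadjusted p under 0.05. None of the members differed without overlap there, where 8.49% of genes tested did not overlap. Ighg1 had a log2 fold change of -0.01 (SE 0.383), Jchain of 0.08 (SE 0.455), Ighm of 0.13 (SE 0.138), Ighd of -0.37 (SE 0.575), Ighg2b of -0.72 (SE 0.814) and Ighg3 of 0.50 (SE 0.421), each with adjusted p = 0.999. Igha and Ighg2c fell under the filter. In simulated counts of this size 46% of genes changed 2-fold were recovered, against 99% in B cells. The changed genes were drawn from all but those of lowest level, so these shares do not hold for each member. The SE of the members ran from 0.138 (Ighm) to 0.814 (Ighg2b) in the gate and from 0.0746 (Ighm) to 1.93 (Ighg1) in B cells. The switched share was 27.3% ± 3.15 in the Cre-negative mice and 24.8% ± 5.70 in the Cre-positive mice (exact permutation test, p = 0.6, adjusted p = 0.7). The gate held 4.36%, 3.10% and 1.81% of B lineage cells in the Cre-negative mice and 3.09%, 2.21% and 2.16% in the Cre-positive mice (exact permutation test, p = 0.6, adjusted p = 0.7).

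In T cells 5 of 12786 genes were called (0.0391%, 0.031% higher and 0.00782% lower), and none was a member. Ighm had a log2 fold change of 0.02 (SE 0.0665, adjusted p = 0.982). Ighd was lower in all 3 Cre-positive mice without overlap, at 3.26 ± 0.117 against 4.10 ± 0.443 CPM (SD, n = 3), where 11.7% of genes tested did not overlap. The log2 fold change of Ighd was -0.32 there (SE 0.135, adjusted p = 0.858). The genotype effect differed between B and T cells in 0.0376% of 13296 genes tested (0.0226% higher in B cells, 0.015% lower), and in none of 10350 between germinal centre and other B cells (0 also with DESeq2, 383 with an unadjusted p under 0.05). None of these was a member. The lowest adjusted p of a member was 0.876 (Ighd) in the first and 1 in the second.

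Other genes of the pathway were read between germinal centre and other B cells. Of 27 genes of the class switch machinery tested there, none of them used by the gate, 12 rose and 1 fell. Of all genes tested 41.9% were called there, 20.8% higher and 21.2% lower, which are the shares to set beside the counts of every list here. The median log2 fold change of the class switch genes was 0.45, beside -0.07 over all genes tested. Exo1, an exonuclease that resects DNA ends, rose by 3.71 (SE 0.414), Ung, which removes uracil from DNA, by 1.76 (SE 0.200), Hmces, which shields abasic sites, by 2.64 (SE 0.161), and Apex1, which cuts at such sites, by 0.83 (SE 0.130). The highest adjusted p of the 4 was 3.08e-08.

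Receptors for T cell help and switch signals were lower. Of 14 tested 12 fell and none rose, with a median log2 fold change of -1.01. Tgfbr2, a TGF-beta receptor chain, fell by 1.06 (SE 0.109), Il10ra by 1.97 (SE 0.247), the ICOS ligand gene Icosl by 1.05 (SE 0.143) and the interleukin-4 receptor gene Il4ra by 0.97 (SE 0.147), each in 6 of 6 mice. Of 18 genes of B cell receptor signalling 12 fell and 2 rose, among them Cd79a, a signalling chain of the receptor, by 0.72 (SE 0.0507), Bank1 by 1.25 (SE 0.0823), the complement receptor Cr2 by 1.13 (SE 0.102) and the kinase Syk by 0.74 (SE 0.0899). Of 11 light chain constant genes and antibody receptors 8 fell and 1 rose, and the lambda light chain genes Iglc2 and Iglc3 fell by 0.92 and 0.74.

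Genes of antibody secretion and plasma cells were divided, with 9 higher and 8 lower of 23 tested and a median log2 fold change of 0.10. Eaf2, an elongation factor partner, rose by 4.43 (SE 0.132), the chaperone Mzb1 by 0.95 (SE 0.0729) and the stress-induced Herpud1 by 0.99 (SE 0.0903). Derl3, of the degradation pathway of the endoplasmic reticulum, rose by 2.22 (SE 0.336, adjusted p = 1.24e-08) in 5 of 6 mice and was not called with the limit of 5% mitochondrial UMIs (1.12, adjusted p = 0.105).

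Switched B cells were then compared with unswitched ones across all genes, without reading the heavy chain constant genes, which had sorted the cells. There were 113 switched cells, 11 to 32 per mouse, and 10704 unswitched ones. Of 10489 genes tested 34.8% were called, 1550 higher (14.8%) and 2095 lower (20%). The naming rule took 10 higher and 10 lower genes, of which 9 each way are given here. The higher ones were Basp1, Rgs13, Hist1h2ap, Stmn1, Eaf2, Mef2b, Txn1, Dut and H1fx, and the lower ones Satb1, Btg1, Cd55, Fcer2a, Zfp318, Hbb-bs, Fcmr, Foxp1 and Stk17b. Basp1, a membrane-bound signalling protein, had 682 ± 153 CPM in switched and 18.5 ± 4.63 CPM in unswitched cells (log2 fold change 5.20, SE 0.136). Fcmr, a receptor for IgM, had 209 ± 86.9 against 787 ± 45.8 CPM (-1.97, SE 0.117). Zfp318, a zinc finger protein required for IgD expression, had 16.2 ± 11.2 against 218 ± 29.0 CPM (-3.85, SE 0.225). Hbb-bs, a red cell globin, was not called without Cre-negative 1 (-2.11, adjusted p = 0.202) or with DESeq2 (-2.20, adjusted p = 0.292).

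**Figure D5:**
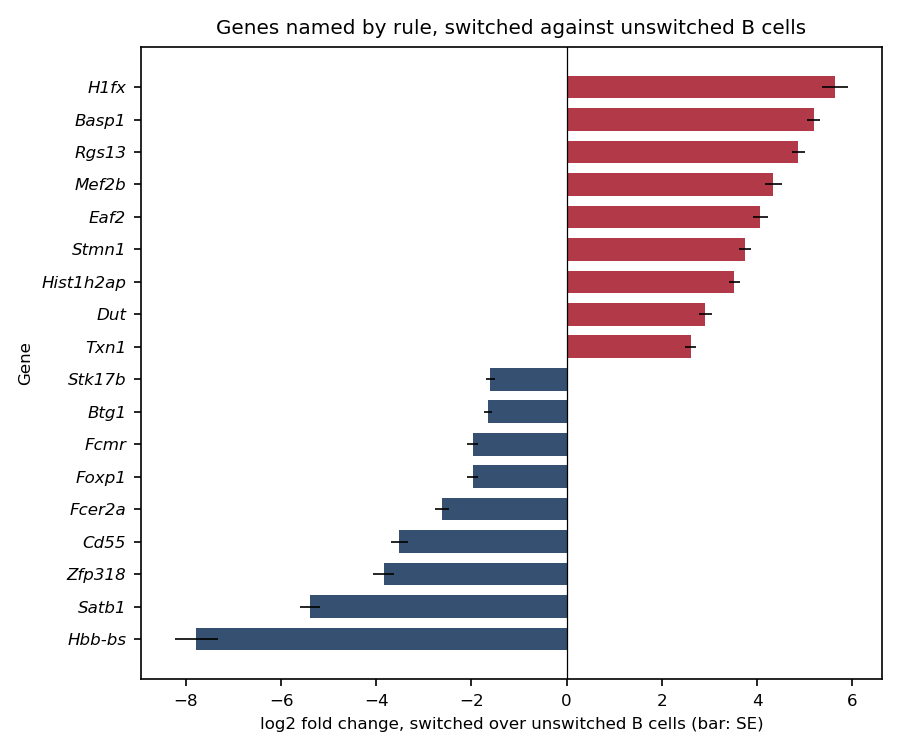
Log2 fold change of 18 of the 20 genes named by rule, switched over unswitched B cells (bars right of 0 are higher in switched cells, error bars are SE from 6 mice). Basp1 and Rgs13 stand at about 5 and Satb1 at about -5, and Hbb-bs rests on 1 mouse.

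Most of the switched cells lay in the germinal centre gate, 70 of 113, against 207 of 10704 unswitched cells, so the comparison was repeated within and without the gate. These repeats were added after the data were seen. The switched cells numbered 7 to 21 per mouse within the gate and only 2 to 14 outside it. Within the gate 724 of 4037 genes were called, and outside it 469 of 9643. Of the lower genes, Satb1, Btg1, Cd55, Fcer2a, Zfp318, Fcmr, Foxp1 and Stk17b passed in the same direction in both. Satb1, a chromatin organiser, had log2 fold changes of -4.46 within and -5.15 outside the gate, and Zfp318 of -2.98 and -3.19. Of the higher genes Basp1 passed in both, with 1.87 and 3.52. Rgs13, Hist1h2ap, Stmn1, Eaf2, Mef2b, Txn1 and Dut passed as higher within the gate and not outside it. H1fx just missed within it (1.43), and had too few counts outside to be tested. Outside the gate Stmn1, a microtubule protein of dividing cells, passed in the opposite direction (-2.81, adjusted p = 0.0185). The gate itself used Rgs13 and Mef2b, which bounds their values in both repeats. A Mki67 UMI was found in 46 of the 70 switched and 40 of the 207 unswitched cells of the gate, at the unequal depths given above. The part of this unequal mix of cells in the values within the gate was not tested.

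Jchain was read in the same 2 ways. Outside the gate 48.8% of the 43 switched and 0.657% of 10497 unswitched B cells had a Jchain UMI, at a median of 7193 and 4336 UMIs. The log2 fold change was 7.54 (edgeR adjusted p = 5.08e-07), with only 2 to 14 switched cells per mouse. The switched cells held 227 Jchain UMIs and the unswitched ones 82. Most of the 227 lay in the single cell of Cre-positive 1 described above, so the level in switched cells there rests heavily on 1 cell. Within the gate 94.3% of the 70 switched and 27.5% of the 207 unswitched cells had one, at a median of 14911 and 5936 UMIs. Per mouse the level was 808 ± 167 CPM in switched and 462 ± 334 CPM in unswitched germinal centre cells (SD, n = 6), higher in switched cells in 4 of 6 mice (log2 fold change 1.03, adjusted p = 0.275). Cre-negative 3 and Cre-positive 2 were the exceptions, with 612 and 1046 CPM in unswitched cells against 554 and 722 CPM in switched ones. The difference of the 2 effects was not tested.

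The lists were read against the 14.8% of all genes that were higher and the 20% that were lower in switched cells. In switched cells 11 of 28 class switch genes were higher and 2 lower, and none of 15 receptors for T cell help was higher and 8 were lower. Of 18 receptor signalling genes 1 was higher and 12 were lower. Of 11 light chain constant genes and antibody receptors 1 was higher, Iglc1 (1.15, SE 0.110), and 8 were lower. When only cells of the gate were compared, Hmces (0.86), Il2rg (-1.24), Ifngr2 (-2.08), Tgfbr2 (-1.10), Icosl (-1.30), Bank1 (-1.87) and Fcgr2b (-2.06) passed, and Ung (0.85, adjusted p = 0.0854), Mzb1 (0.17, adjusted p = 0.36) and Iglc1 (0.43, adjusted p = 0.469) did not. Outside the gate Bank1 (-0.85, adjusted p = 0.0131) and Iglc1 (0.79, adjusted p = 0.0452) passed. Il2rg (-0.40), Ifngr2 (-0.52), Tgfbr2 (-0.35), Icosl (-0.63), Fcgr2b (-0.16), Hmces (-1.88), Ung (-0.56) and Mzb1 (0.27) did not pass there, with adjusted p from 0.132 to 0.841. Of 23 secretion genes 6 were higher and 9 lower, and the chaperone Hsp90b1 was at 268 CPM in switched and 561 CPM in unswitched cells. Cr2 passed in both repeats (-1.47 within the gate and -3.11 outside it). Hsp90b1 (-1.37), Herpud1 (0.49), Cd79a (-0.35) and Iglc3 (-0.52) passed within the gate. Outside it Hsp90b1 (-0.63, adjusted p = 0.102), Herpud1 (0.03, adjusted p = 0.967), Cd79a (-0.53, adjusted p = 0.127) and Iglc3 (-0.67, adjusted p = 0.0633) did not.

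For each member the genes of most alike pattern were sought over 48 sums, 8 classes by 6 mice, with Pearson's r on log2(CPM + 1) among 11289 genes without antibody genes. The points share libraries and the classes differ in depth, so r is a description. For Ighm they were Fcrla (0.95), Serp1 (0.94) and Mzb1 (0.92), and for Ighd Srpk3 (0.95), Chst3 (0.95) and Cacna1i (0.93). For Ighg1 they were Lipc (0.97), Lmo7 (0.96) and Rgs13 (0.95), and for Jchain Lipc (0.89), Rassf6 (0.89) and Lmo7 (0.89). For Ighg2b they were Gm40634 (0.92), 2010007H06Rik (0.91) and Cort (0.90), for Ighg3 Endou (0.80), Mef2b (0.79) and Asns (0.77), for Igha 4930426D05Rik (0.82), Cd79a (0.79) and Bank1 (0.78), and for Ighg2c Slc43a1 (0.72), Asns (0.65) and Etl4 (0.62). Among the members themselves Ighg1 and Jchain were the closest pair (0.86) and Ighm and Ighg2c the least alike (0.18).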

How the data were processed

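The authors deposited raw UMI counts for each gene in each barcode. Cell Ranger 6.1.2 and the genome mm10 are named in the submitters' processing notes. The annotation release and the chemistry are not given in the sources used here. Kept barcodes had at least 500 UMIs, at least 300 genes and at most 10% mitochondrial UMIs. The 480 to 914 highest Scrublet scores per library (scanpy 1.11.5, 0.8% for each 1000 barcodes) were removed as doublets. Total counts per library were 47149014 to 61321105.

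Cells were gated on marker UMIs. B cells had UMIs of at least 2 of 4 genes (Cd79a, Cd79b, Ms4a1 and another), 3 such UMIs or more and no CD3 UMI. Germinal centre B cells also had 2 of 8 genes, among them S1pr2, Mef2b, Rgs13, Gcsam, Nuggc, Fas and Bcl6. T cells had at least 2 CD3 UMIs and at most 1 UMI of the same 4 genes. UMIs were summed per class and mouse. Genes were tested in edgeR 4.0.16 (R 4.3.3) with its quasi-likelihood F test, TMM factors, a low-count filter and Benjamini-Hochberg adjustment over all genes tested at 0.05. Comparisons of classes kept the mouse as a block. The SE was the log2 fold change divided by the root of F, which is a poor measure of precision for genes near 0. Shares were compared over mice with exact two-sided permutation tests. Intervals and floors cover counting error only.

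The test was checked on simulated data with 200 genes changed 2-fold. The alternatives were DESeq2 1.42.0, no filter, scaling without antibody genes, a replicate block, other gates and cell limits, and leaving out each mouse. The members and lists were chosen with earlier results of these data known. B cells with 1 CD3 UMI, the repeats within and without the germinal centre gate, the marker checks of the gates, the 500-UMI threshold, the comparison of CD8 with CD4 T cells and that of Jchain within the gate were added after the data were seen. The named genes are the members, up to 4 genes of smallest p per list, and for switched against unswitched cells the 10 higher and 10 lower genes of smallest p that moved alike in 6 mice at a mean of 20 CPM or more, without antibody, ribosomal, mitochondrial and predicted genes. Fcrl5 was named because it was the other gene called in B cells. Transcript sequences are from GENCODE M21 on mm10. A few genes, the floxed one included, are not reported here.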

Additional observations from a re-analysis of the deposited data

Results flagged for a closer look

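Ifngr2, a chain of the interferon-gamma receptor and 1 of the receptors for T cell help, differed in its genotype effect between B and T cells (interaction log2 fold change 0.43, SE 0.0780, edgeR adjusted p = 0.0106). B cells had 68.0 ± 2.11 CPM in the Cre-negative mice and 79.9 ± 6.37 CPM in the Cre-positive mice (SD, 3 mice each). T cells had 49.3 ± 7.93 and 42.9 ± 2.08 CPM. Neither class passed on its own (edgeR adjusted p = 0.828 and 0.887). The call was lost in 6 of 14 alternatives. These were DESeq2 (adjusted p = 1.00), the limit of 5% mitochondrial UMIs (adjusted p = 0.943) and leaving out Cre-negative 1 (adjusted p = 0.121), Cre-negative 2 (0.151), Cre-positive 2 (0.0933) or Cre-positive 3 (0.0533).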

How the results depend on the processing

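Results held in most settings, with 126 of 168 summary values and 1386 of 1437 values of single genes counted as unchanged. A change of sign in a gene not called also counted as unchanged, as for Ighg1 between genotypes in germinal centre B cells (log2 fold change -0.33 to 0.30). Counts of genes called were judged by their total and not by direction. In B cells the 2 genes called, both higher, became 3 lower ones without Cre-positive 3, which counted as unchanged. Counts of genes called between genotypes were small and moved. In B cells 2 became 4 with DESeq2, 24 without the low-count filter, 1 with stricter gates and 0 with a limit of 5% mitochondrial UMIs (438 genes had an unadjusted p under 0.05) or with 1 CD3 UMI allowed (557 genes), and ranged from 1 to 4 when a mouse was left out. In T cells 5 became 14 with DESeq2, 67 without the filter, 3 with doublets kept, 3 with the 5% limit and 11 with stricter gates, and ranged from 1 (without Cre-negative 1) to 20 (without Cre-positive 2). In germinal centre B cells 0 became 1 without Cre-positive 1 and stayed at 0 in the other 5 leave-outs. The genotype effect differed between germinal centre and other B cells in 0 genes, in 1 without the filter, in 1 with the 5% limit, in 4 with stricter gates and in 0 to 7 (without Cre-positive 3) when a mouse was left out. Between B and T cells it differed in 5 genes, in 2 with DESeq2, 32 without the filter, 17 with stricter gates, 9 with 1 CD3 UMI allowed and 4 to 25 (without Cre-positive 1) when a mouse was left out. The cause of these moves was not tested.

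Switched against unswitched cells gave 3645 genes, 724 with cells of the germinal centre gate only and 469 without them, where fewer cells and genes were compared. Outside the gate the log2 fold change changed sign for Rgs13 (-7.56), Stmn1 (-2.81), Hmces (-1.88), Dut (-1.02), Mef2b (-0.70) and Ung (-0.56), and of these only Stmn1 passed the test. The genotype difference in the switched share of germinal centre B cells turned from -2.46 to 4.0 percentage points with the 5% limit. The gap between the classes in switched share was 24.1 to 26.6 points when a mouse was left out, at p = 0.0625 (exact sign-flip permutation test), the smallest that 5 mice allow.

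Replicate numbers are shared between the groups but did not pair the samples. The correlation of same-numbered samples was -0.17, -0.34 and 0.18 in B cells, -0.11, -0.66 and 0.06 in T cells and -0.20, 0.02 and -0.08 in germinal centre B cells. With a replicate block 1 gene was called in B cells, which was Igha (adjusted p = 0.00159), and Fcrl5 was not (adjusted p = 0.0593).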
